A study of Mus musculus with 10 samples.

Results

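In this comparison, bone marrow-derived macrophages (BMDMs) that received the full set of natural TLR7 ligands were set against BMDMs that received vehicle, and 4 of the 10 libraries of the series belong to it. The treated group, called PNPi+dG/rG+polyU, was exposed for 4 hours to 5 μg of polyU in DOTAP together with ulodesine at 1 μM and the nucleosides dG and rG at 5 μM each, and the other group to vehicle for the same time, with 2 libraries each. All cells came from the marrow of wild-type female C57BL/6 mice and were grown in medium with MCSF, the growth factor that turns marrow cells into macrophages. PolyU is a synthetic ssRNA of uridines, DOTAP is a lipid that carries RNA into endosomes, ulodesine inhibits PNP, and dG and rG are deoxyguanosine and guanosine. Of the 55573 genes in the table, the 11978 with at least 1 CPM in 2 or more of all 10 libraries were tested. The remaining libraries received polyU in DOTAP alone, PNPi+dG/rG without polyU or 1 ng/mL R848, a synthetic TLR7 ligand, and they enter here through the estimate of the spread and, for polyU and R848, as values set beside those of PNPi+dG/rG+polyU.

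TLR7 is an endosomal receptor with one pocket for guanosine and another for uridine-rich ssRNA, and it signals through MyD88 to NF-κB and to interferon regulatory factors (IRFs). PNP degrades guanosine and deoxyguanosine, so its inhibition lets both nucleosides persist. In macrophages this pathway is known to switch on inflammatory cytokines at once and a second wave of genes that answer to secreted type I IFN.

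The labels call the libraries biological replicates but do not say whether they came from different mice, so the p-values measure the spread between these samples, which may be technical. The treated group differs from vehicle by the inhibitor, 2 nucleosides, the ssRNA and its lipid together, and in this pair their parts cannot be told apart. Whether the vehicle contained DOTAP is not given in the sources used here. The treated libraries held 14128124 and 14214913 reads on genes and the vehicle libraries 17820950 and 17798370, and 3 reads, the least taken as detectable, stand for 0.212, 0.211, 0.168 and 0.169 CPM in the same order. Within each pair log2 values correlated with r = 0.997 across genes, which are not independent replicates. In an unadjusted chi-square test of genes with enough reads, 15.8% of 10533 genes differed between the treated libraries. Between the vehicle libraries 25.6% of 10911 genes differed. Some genes pass such a test through sampling noise alone, so these are not the shares that differed beyond that noise. With these differences, neither pair was taken for the same library deposited again. All 15 macrophage markers were measured, with summed levels of 27607 and 28416 CPM with vehicle and 24791 and 24969 CPM after treatment. The 10 T cell markers summed to 91.1 and 81.4 CPM with vehicle and 28.5 and 25.8 CPM after treatment, with Cd3d and Cd3e at 0 reads in these 4 libraries. The 10 B cell markers went from 147 and 159 to 194 and 189 CPM with Pax5 at 0, the 10 plasmacytoid dendritic cell markers from 340 and 348 to 501 and 508 CPM with Siglech at 0, and the 10 endothelial markers from 248 and 243 to 146 and 146 CPM with Tek at 0. Of these, 4, 5 and 5 were tested. The calls were 1 B cell marker lower, 1 dendritic cell marker higher and 1 lower, and no endothelial marker. Bst2, a dendritic cell marker here, is also in the list of IFN-stimulated effectors below. The 10 neutrophil markers summed to 18.6 and 19.05 and then 20.3 and 19.7 CPM with Ly6g at 0. The summed level of the 20 fibroblast markers went from 2.81 and 4.33 to 10.2 and 9.78 CPM and reached 409.8 CPM in a library of the R848 group, which enters the fit, and a fit of the vehicle and treated libraries alone called 970 genes higher and 1758 lower. The part of these marker levels in the results was not tested. In bulk RNA, fewer cells of a type and less RNA per cell cannot be told apart.

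Of the 11978 genes, 2685 were called between PNPi+dG/rG+polyU and vehicle, where a call means a change of 2-fold or more that also passed limma's test at an adjusted p of 0.05. The called genes were 973 that rose (8.12%) and 1712 that fell (14.3%). The rises were fewer but steeper. With values under 3 reads raised to 3 reads, 269 genes were at least 8-fold higher and 77 at least 8-fold lower, 60 were at least 32-fold higher and 1 was at least 32-fold lower, and all 30 genes past 64-fold were higher. At least 8-fold lower genes included the urokinase gene Plau, the most abundant of the deeply lowered genes. Together the higher genes took 3.57% and 3.52% of the reads of the vehicle libraries and 17.8% and 18.1% of those after treatment, and the lower genes fell from 13.7% and 13.9% to 4.80% and 4.63%. CPM values are shares of a library, and the median log2 difference of all genes tested was -0.22, so differences below are best read against that shift. When the median log2 value of every library was set to the same level the calls were 1192 higher and 1245 lower, which takes the higher share of the calls from 36.2% to 48.9%. By mean level over the 10 libraries, 17.8% of genes under 1 CPM were lower, 22.7% of those with 1 to 10 CPM, 11.6% with 10 to 100 CPM and 10.1% with 100 to 1000 CPM. There were 27 higher genes with 0 reads in both vehicle libraries and 6 lower genes with 0 reads in both treated libraries.

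**Figure D1:**
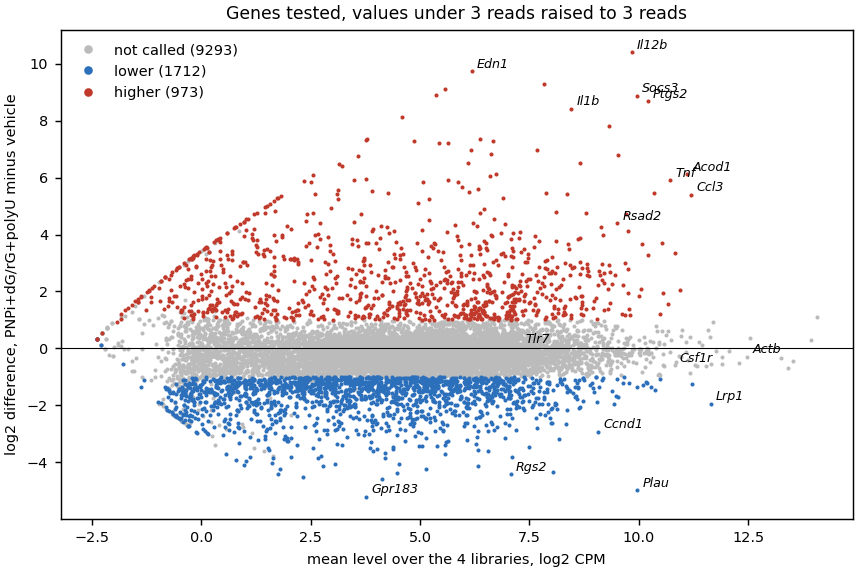
Each point is 1 of the 11978 genes tested, with its mean level over the 4 libraries in log2 CPM on the horizontal axis and the log2 difference, PNPi+dG/rG+polyU minus vehicle, on the vertical axis, after values under 3 reads were raised to 3 reads. The 973 genes called higher (red) reach past 10 on the log2 scale at Il12b, while the 1712 called lower (blue) are lowest at Gpr183 and Plau.

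The plot of level against difference shows the asymmetry between the directions. The 25 gene lists used below were then each described by the number of their tested members that were called, to be read against the 8.12% higher and 14.3% lower of all genes.

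**Figure D2:**
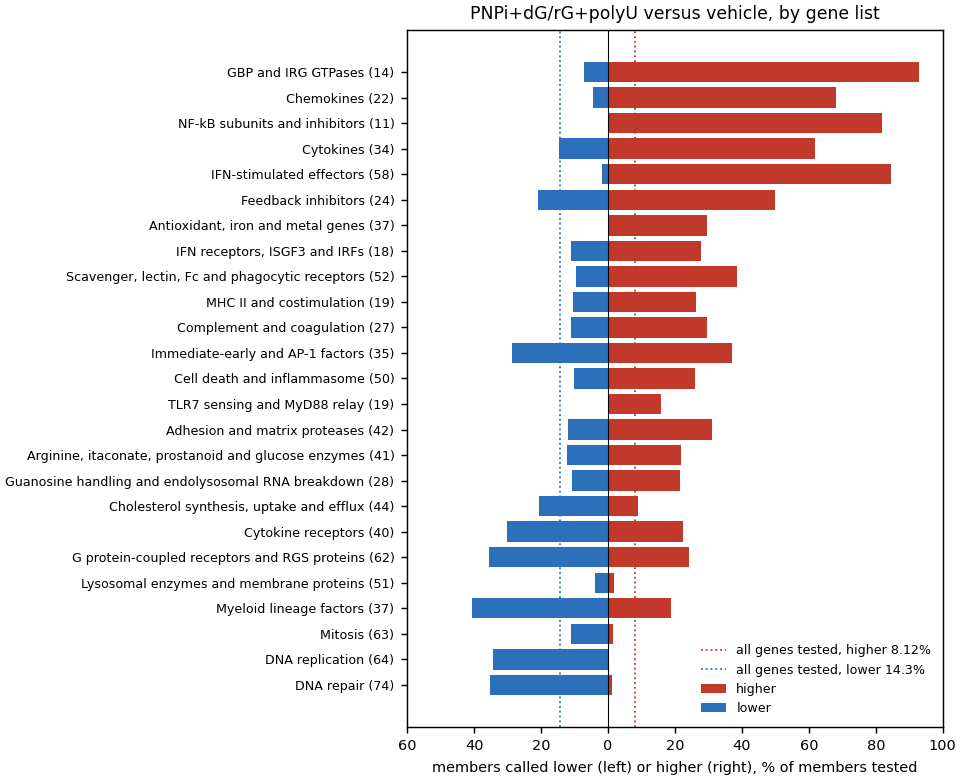
Bars give, for each gene list (number of tested members in brackets), the percentage of members called higher (right, red) or lower (left, blue) with PNPi+dG/rG+polyU against vehicle, and dotted lines mark the 8.12% and 14.3% of all genes tested. Lists are ordered by their median log2 difference, from the GBP and IRG GTPases at 3.82 down to DNA repair at -0.80.

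Few genes of the sensor and its relay were called, and among them was a negative regulator. Of 19 genes for TLR7 sensing and the MyD88 relay, 3 were higher and none lower, with a median log2 difference of 0.05. Tlr7 itself was at 166 and 142 CPM with vehicle and 152 and 166 CPM after treatment, which overlap, with a log2 difference of 0.05 ± 0.07 (adjusted p = 0.524, limma). Unc93b1, which carries TLR7 to endosomes, was 564 and 588 CPM and 735 and 733 CPM, a difference of 0.35 ± 0.04 on the log2 scale that passed the test (adjusted p = 1.52e-06) but stayed under 2-fold. The adaptor gene Myd88 rose from 74.5 and 73.7 CPM to 201 and 199.7 CPM, the kinase gene Irak2 from 60.8 and 64.9 CPM to 257 and 246 CPM, and Irak3, which encodes a kinase-dead IRAK that damps the pathway, from 34.1 and 32.1 CPM to 244 and 242 CPM. The Irak3 rise of 2.88 ± 0.05 (adjusted p = 4.04e-16) was the largest of the list.

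NF-κB subunits and their inhibitors rose almost as a set. Of 11 genes, 9 were higher and none lower, with a median log2 difference of 2.66. Nfkbiz, encoding the inducible nuclear cofactor IκBζ, went from 13.1 and 13.1 CPM to 1514 and 1419 CPM, a log2 difference of 6.81 ± 0.08 (adjusted p = 3.47e-16). Nfkbia, encoding the inhibitor IκBα, rose from 90.4 and 96.2 CPM to 1619 and 1629 CPM, a 17.4-fold change. Bcl3, another nuclear IκB, rose 16.01-fold and Nfkbie, encoding IκBε, 8.27-fold.

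Negative regulators of cytokine and MAPK signaling moved both ways. Of 24 feedback genes, 12 were higher and 5 lower, with a median log2 difference of 1.24. The shares were 50% and 20.8%, against 8.12% and 14.3% of all genes. Socs3, which blocks signaling by the IL-6 receptor, rose from 4.601 and 3.82 CPM to 1963 and 2007 CPM, a log2 difference of 8.89 ± 0.23 (adjusted p = 4.13e-07). Its relative Socs1 rose from 2.69 and 2.08 CPM to 117 and 127 CPM, the MAPK phosphatase gene Dusp2 from 3.37 and 3.09 CPM to 156 and 155 CPM, and Cish, another SOCS gene, from 0.168 and 0.225 CPM to 4.88 and 5.63 CPM, for which pooled reads gave a ratio of 26.8 (95% interval 12.7 to 67.7). Other members fell. Zfp36l2, a relative of TTP that promotes mRNA decay, fell from 497 and 508 CPM to 28.5 and 21.1 CPM, a log2 difference of -4.35 ± 0.12 (adjusted p = 8.42e-09), and Zfp36l1 fell 5.15-fold. Dusp6, whose product switches off ERK, went from 74.97 and 77.3 CPM to 11.2 and 10.7 CPM, and Dusp5 fell 3.22-fold.

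Cytokine genes were among the steepest rises. Of 34 members tested, 21 were higher and 5 lower, with a median log2 difference of 2.61, or 2.33 with values under 3 reads raised to 3 reads. The shares were 61.8% and 14.7%, against 8.12% and 14.3% of all genes, so the lower share was near that of all genes. Il12b, which encodes the p40 chain shared by IL-12 and IL-23, went from 1.29 and 1.405 CPM to 1801 and 1847 CPM, a log2 difference of 10.40 ± 0.10 (adjusted p = 1.25e-18). Il1b, encoding the secreted pyrogen IL-1β, rose from 2.13 and 1.97 CPM to 661 and 736 CPM, and Il1a, encoding IL-1α, from 1.01 and 1.01 CPM to 156 and 173 CPM. The fold changes of these 3 genes were 1355, 341 and 163. Il6, the gene of the acute-phase cytokine IL-6, had 1 and 0 reads with vehicle and 76.4 and 87.4 CPM after treatment, and the pooled reads gave a ratio of 2918 (95% interval 523 to 115308). Its adjusted p with limma was 0.00537 in the fit of all libraries and 0.0746 when only the 2 groups were fitted. With pseudocounts of 0.1 and 1 the adjusted p was 2.40e-16 and 8.77e-19, and with values raised to 3 reads it was 8.82e-16. Tnf, the gene of the first cytokine in most inflammatory cascades, rose from 53.2 and 56.4 CPM to 3415 and 3154 CPM, or 59.9-fold, and the regulatory cytokine gene Il10 from 2.02 and 1.97 CPM to 113 and 116 CPM, or 57.4-fold. Among the lower members, Vegfa, the angiogenic factor, fell from 45.8 and 48.3 CPM to 13.4 and 11.1 CPM, Il16, a chemoattractant for CD4 cells, from 13.7 and 13.4 CPM to 3.47 and 3.17 CPM, and Tnfsf14, encoding LIGHT, from 7.58 and 6.97 CPM to 1.06 and 1.06 CPM. Hbegf, an EGF-family growth factor, was low in both groups, at 1.74 and 0.899 CPM and 0.142 and 0.281 CPM, and its pooled reads gave a ratio of 0.1604 (95% interval 0.0561 to 0.376). The fifth lower member was Tnfsf12, which encodes TWEAK.

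Chemokines that attract neutrophils and those that attract T cells both rose. Of 22 chemokine genes, 15 were higher and 1 lower, with a median log2 difference of 3.49, or 2.43 with values under 3 reads raised to 3 reads. Cxcl1, the main neutrophil chemokine of the mouse, went from 0.729 and 0.7304 CPM to 481 and 434 CPM, a log2 difference of 9.29 ± 0.16 (adjusted p = 1.46e-13). Cxcl2, its close relative, rose from 5.61 and 5.79 CPM to 1325 and 1233 CPM, and Cxcl3, of the same group, from 1.29 and 1.01 CPM to 137 and 149 CPM. Cxcl10, an IFN-inducible ligand of CXCR3, rose from 10.998 and 6.91 CPM to 805 and 778 CPM, or 90.8-fold (adjusted p = 3.56e-06). By share of reads the CC chemokines Ccl3 and Ccl4, which attract monocytes and T cells, led the list. Ccl3 went from 111 and 106 CPM to 4514 and 4690.4 CPM and Ccl4 from 56.002 and 58.5 CPM to 2506 and 2578 CPM. Cxcl14, a chemokine of resting tissues, was the only lower member, at 11.4 and 13.1 CPM and then 6.79 and 5.35 CPM, and was not called once libraries were centred, with a pseudocount of 1, or without replicate 2 of either group.

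The genes of the interferons themselves had few reads at 4 hours. Of 22 genes, 21 for IFN ligands and 1 for the IFN-λ receptor chain Ifnlr1, 20 had 0 reads in all 4 libraries, and the exceptions were Ifnb1 and Ifnlr1. Ifnb1, encoding IFN-β, had 1 and 0 reads with vehicle and 19 and 15 reads after treatment, or 1.34 and 1.06 CPM, and pooled reads gave a ratio of 42.7 (95% interval 7.17 to 1737). It was not called, at an adjusted p of 0.0545 with limma, and passed with pseudocounts of 0.1 (3.98e-05) and 1 (1.21e-05), with values raised to 3 reads (7.07e-04), when only the 2 groups were fitted (0.0133) and without replicate 1 of vehicle (0.0177). The range of its adjusted p over the alternatives tried was 1.21e-05 to 0.366.

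Genes of the IFN response were raised broadly. Of 18 genes for IFN receptors, the ISGF3 complex and IRFs, 5 were higher and 2 lower. The shares were 27.8% and 11.1%, against 8.12% and 14.3% of all genes. Stat2, a subunit of ISGF3, rose from 100.4 and 93.9 CPM to 510.5 and 528 CPM, and Irf1, a transcription factor of the early response, from 21.5 and 22.2 CPM to 261 and 242 CPM. Jak2, a kinase of cytokine receptors, rose 8.64-fold, and Irf9, the DNA-binding ISGF3 subunit, was also higher. Irf7, the factor that amplifies IFN genes, went from 265 and 263 CPM to 505 and 508 CPM, a difference of 0.94 ± 0.09 on the log2 scale (adjusted p = 7.91e-06) that was just under 2-fold. With centred libraries Irf7 was past 2-fold, and 7 members of the list were called higher. The lower members were Irf8, a factor of monocyte and dendritic cell identity, from 222 and 239 CPM to 76.2 and 76.9 CPM, and Irf4, a lymphoid and myeloid factor, from 1.46 and 0.7304 CPM to 0.212 and 0.281 CPM. Irf4 was under 2-fold with a pseudocount of 1 (log2 difference -0.73) and was left out by the filter on the mean level, which left 1 lower member.

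Of 58 IFN-stimulated effector genes, 49 were higher and 1 lower, with a median log2 difference of 2.36, and of 14 genes for guanylate-binding proteins (GBPs) and immunity-related GTPases, 13 were higher and 1 lower, with a median of 3.82. Mx1, a gene of the dynamin-like GTPase family, rose from 11.4 and 9.38 CPM to 482 and 440.2 CPM, a log2 difference of 5.48 ± 0.11 (adjusted p = 1.80e-13). Mx2, which is annotated as a polymorphic pseudogene, rose from 3.42 and 2.58 CPM to 137 and 133 CPM. These are transcript levels, and whether either gene makes a working protein in these cells was not tested. Ifit1, which binds viral RNA caps, rose from 39.2 and 25.002 CPM to 854 and 859 CPM, and Rsad2, which encodes the antiviral enzyme viperin, from 72.7 and 59.6 CPM to 1415 and 1347 CPM. Ifi205, of the DNA-sensing p200 family, had the largest rise of its list, from 3.09 and 2.697 CPM to 191 and 194 CPM. Among the GTPases, Gbp5, a GBP that promotes inflammasome assembly, rose from 3.87 and 2.697 CPM to 406 and 406 CPM, a log2 difference of 6.97 ± 0.16 (adjusted p = 3.36e-10). Gbp3 rose 27.1-fold, Gbp7 19.6-fold and the rarer Gbp4 22.4-fold. Gbp8, at 1.07 and 1.24 CPM and then 0.425 and 0.563 CPM, was the exception, with an adjusted p of 0.0287 that rose to between 0.0601 and 0.110 with no filter, with centred libraries or without any library other than replicate 2 of the treated group. GBP, Slfn, Oas1 and Ifit3 genes have close copies that can share reads, so their single values are uncertain.

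**Figure D3:**
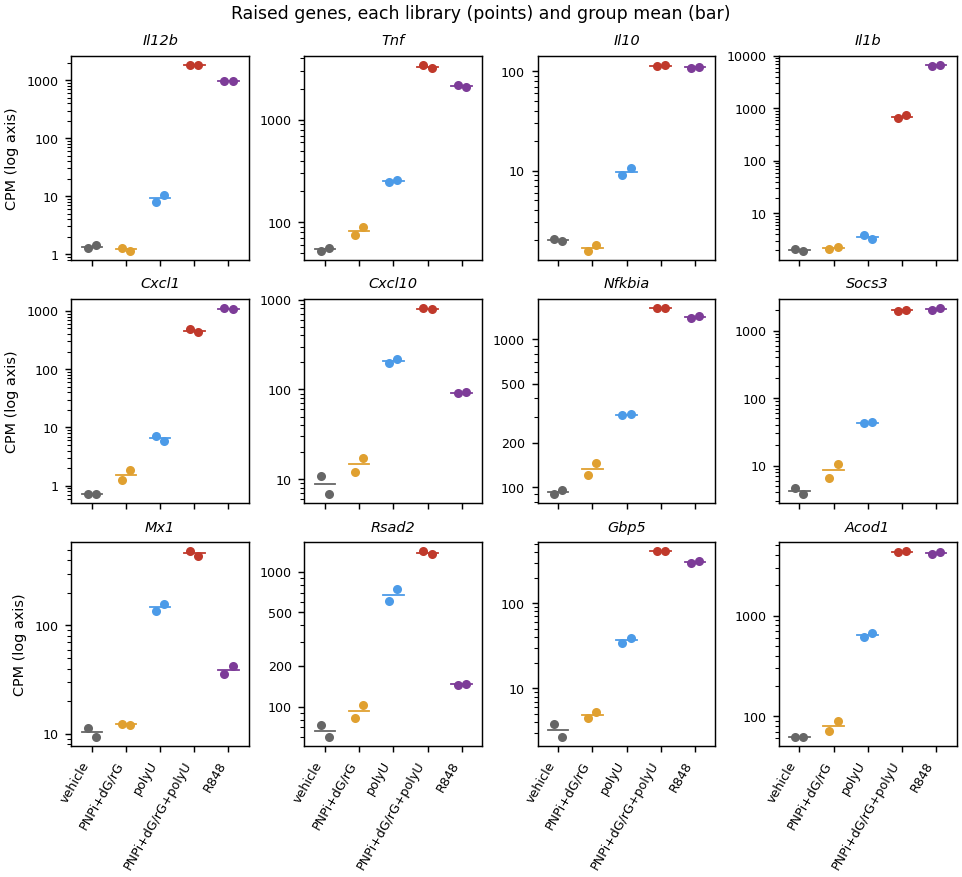
CPM on a log axis of 12 raised genes in each of the 10 libraries (points) with the group mean (bar), ordered from left to right as vehicle, the inhibitor with guanosines but no ssRNA, polyU alone, PNPi+dG/rG+polyU and R848. The PNPi+dG/rG+polyU points lie far above the vehicle points for every gene shown. The R848 points lie above those of PNPi+dG/rG+polyU for Il1b and Cxcl1 and below them for Il12b, Nfkbia, Gbp5, Cxcl10, Mx1 and Rsad2.

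The promoters of 5 genes are printed as the 250 bases before the start of the RefSeq transcript (GRCm38.p6), read 5′ to 3′ on the strand of the gene, as examples of promoters of raised genes that hold the motifs searched, which most promoters of their lists do not for κB. Capitals mark the letters of a κB motif (GGANTTTCC), an IFN-stimulated response element or ISRE (TTTC, any 2 bases, then TTTC) or an AP-1 motif (TGANTCA), searched on both strands. Nfkbia (chr12:55492648-55492897, minus strand) holds κB matches that begin 178 and 29 bases before the start. Cxcl1 (chr5:90890995-90891244, plus strand) holds 1, at 70 bases. Cxcl10 (chr5:92348890-92349139, minus strand) holds an ISRE match at 213, a κB match at 158 and an AP-1 match at 74 bases. Ifit1 (chr19:34640639-34640888, plus strand) holds ISRE matches at 104 and 85 bases, and Gbp5 (chr3:142496684-142496933, plus strand) an ISRE match at 165 and a κB match at 77 bases.
Nfkbia: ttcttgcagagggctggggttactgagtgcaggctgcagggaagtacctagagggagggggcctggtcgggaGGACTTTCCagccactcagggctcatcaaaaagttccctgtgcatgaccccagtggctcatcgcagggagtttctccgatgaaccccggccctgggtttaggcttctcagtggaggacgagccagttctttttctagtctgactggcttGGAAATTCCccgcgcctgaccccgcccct
Cxcl1: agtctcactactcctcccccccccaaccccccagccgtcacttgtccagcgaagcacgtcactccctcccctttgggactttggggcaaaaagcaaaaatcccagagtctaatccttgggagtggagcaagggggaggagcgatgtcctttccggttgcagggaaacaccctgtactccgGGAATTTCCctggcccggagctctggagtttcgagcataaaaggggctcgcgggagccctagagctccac
Cxcl10: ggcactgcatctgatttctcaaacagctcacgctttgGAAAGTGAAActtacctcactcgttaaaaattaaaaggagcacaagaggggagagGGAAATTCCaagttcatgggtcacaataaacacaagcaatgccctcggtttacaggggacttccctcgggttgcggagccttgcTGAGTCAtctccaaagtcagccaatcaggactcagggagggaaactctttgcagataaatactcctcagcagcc
Ifit1: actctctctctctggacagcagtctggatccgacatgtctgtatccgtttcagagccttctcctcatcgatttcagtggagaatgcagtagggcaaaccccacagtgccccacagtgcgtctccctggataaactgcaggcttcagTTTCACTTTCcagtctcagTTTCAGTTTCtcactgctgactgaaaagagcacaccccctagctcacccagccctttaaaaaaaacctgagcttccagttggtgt
Gbp5: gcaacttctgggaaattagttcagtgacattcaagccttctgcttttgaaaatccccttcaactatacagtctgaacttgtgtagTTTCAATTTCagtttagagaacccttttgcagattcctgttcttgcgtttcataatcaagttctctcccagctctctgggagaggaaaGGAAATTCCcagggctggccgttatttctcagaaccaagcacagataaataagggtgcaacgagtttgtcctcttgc

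Over whole windows of 300 bases, which add the 50 bases after the start, the κB motif was present in 1.25% of all 32851 promoters, in 3.94% of those of higher genes and in 1.04% of those of lower genes. The ISRE was present in 3.44%, 9.75% and 2.49% of the same sets. In the lists themselves it was in 22 of 52 promoters of the effector genes and 8 of 9 of the GTPase genes, and the κB motif was in 4 of 15 chemokine, 4 of 31 cytokine, 3 of 12 NF-κB list and 1 of 9 GTPase promoters. Matches are a description of letters, and their use was not tested. Promoters were found for 716 of the 973 higher and 1285 of the 1712 lower genes.

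**Figure D4:**
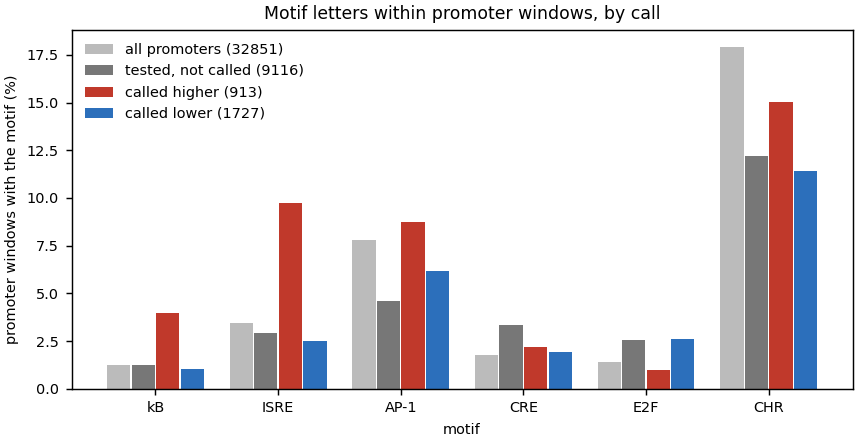
Bars give the percentage of promoter windows that hold each of 6 motifs, for all promoters, genes tested but not called, and genes called higher or lower (number of windows in brackets). The κB and ISRE bars of the higher genes stand at 3.94% and 9.75%, against 1.23% and 2.90% of the genes not called.

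Receptors for cytokines moved both ways. Of 40 members, 9 were higher and 12 lower, with a median log2 difference of -0.23, close to that of all genes. Tnfrsf1b, the TNF receptor TNFR2, rose from 314 and 331 CPM to 3243 and 3395 CPM, a log2 difference of 3.36 ± 0.05 (adjusted p = 1.29e-16). The herpesvirus entry mediator gene Tnfrsf14 rose from 6.57 and 7.81 CPM to 53.5 and 49.7 CPM, the G-CSF receptor gene Csf3r from 23.2 and 26.8 CPM to 132 and 164 CPM, and the CD30 gene Tnfrsf8 from 0.337 and 0.618 CPM to 5.45 and 4.92 CPM. Among the lower members, Il7r, the IL-7 receptor, went from 410.0 and 368 CPM to 80.8 and 72.7 CPM, a log2 difference of -2.34 ± 0.06 (adjusted p = 1.46e-14). Kit, the stem cell factor receptor, fell from 13.8 and 14.2 CPM to 2.83 and 1.76 CPM, Tnfrsf12a, the TWEAK receptor, from 15.4 and 14.9 CPM to 2.41 and 2.603 CPM, and Tnfrsf26, a decoy-like TNF receptor, from 34.2 and 33.1 CPM to 5.096 and 5.07 CPM. Csf1r, the receptor for MCSF, passed from 2139.7 and 2206 CPM to 1455 and 1416 CPM, a difference of -0.60 ± 0.04 (adjusted p = 4.30e-10) that was under 2-fold.

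Immediate-early and AP-1 factors were divided at 4 hours. Of 35 genes, 13 were higher and 10 lower. Batf, a dimer partner of JUN proteins, rose from 3.31 and 3.65 CPM to 56.8 and 67.5 CPM, and Batf2 from 4.88 and 4.44 CPM to 38.2 and 45.1 CPM. Ier3, a stress-response gene, rose from 12.2 and 11.97 CPM to 175 and 201 CPM, and the nuclear receptor gene Nr4a3 rose at a low level, from 0.112 and 0.281 CPM to 3.82 and 3.87 CPM, with a pooled-read ratio of 19.6 (95% interval 9.18 to 49.8). Among the lower members, the FOS-family gene Fosb fell from 6.57 and 6.69 CPM to 0.354 and 0.352 CPM, a log2 difference of -4.23 ± 0.46 (adjusted p = 7.45e-07), and Egr3 from 1.46 and 2.14 CPM to 0.283 and 0.0703 CPM. Klf10, a TGF-β-inducible repressor, fell from 75.8 and 77.4 CPM to 7.64 and 6.54 CPM, and Myc, the growth-promoting factor, from 114 and 117 CPM to 18.3 and 18.9 CPM, or 6.196-fold (adjusted p = 2.62e-14).

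Factors of the myeloid lineage were lowered more often than raised. Of 37 members, 15 were lower and 7 higher, with a median log2 difference of -0.53. The homeobox gene Hhex fell from 56.3 and 56.5 CPM to 11.5 and 9.99 CPM, a log2 difference of -2.39 ± 0.09 (adjusted p = 2.60e-12). Falls were also seen in the ETS factor gene Etv5 from 67.4 and 67.7 CPM to 14.2 and 11.1 CPM, and the clock-related repressor gene Bhlhe40 from 65.8 and 71.2 CPM to 12.5 and 11.5 CPM. Cebpd, a C/EBP of the acute-phase response, moved the other way, from 21.9 and 26.4 CPM to 378 and 368 CPM, or 15.5-fold, as did Tfec, a relative of MITF found in macrophages, from 9.03 and 9.61 CPM to 80.3 and 78.6 CPM. Zeb1 rose from 2.69 and 3.26 CPM to 12.2 and 13.6 CPM. Myb, a progenitor factor, was called higher at a low level, 0.168 and 0.449 CPM and then 1.98 and 1.69 CPM, with a pooled-read ratio of 5.94 (95% interval 3.06 to 12.6). Spi1, which encodes the master factor PU.1, went from 381 and 418 CPM to 780.0 and 783 CPM, just under 2-fold (log2 difference 0.97 ± 0.05, adjusted p = 1.77e-10). With centred libraries Spi1 was past 2-fold, and 8 members of the list were called higher and 14 lower.

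Cell surface markers of macrophages did not move as one. Adgre1, encoding F4/80, went from 1547 and 1629 CPM to 2462 and 2441 CPM, and Trem2, a lipid-sensing receptor, from 547 and 579.7 CPM to 353 and 349 CPM, both under 2-fold. Cx3cr1, the fractalkine receptor, fell from 38.8 and 39.2 CPM to 9.202 and 9.71 CPM, a log2 difference of -2.04 ± 0.17 (adjusted p = 4.91e-07). Actb, the β-actin gene, was at 6288 and 6243 CPM and 5172 and 5039 CPM, a difference of -0.30 ± 0.04 that lies near the median of all genes.

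Genes of DNA replication and repair were lower at 34.4% and 35.1% of their members, against 14.3% of all genes, and few genes of mitosis were called. Of 64 replication genes, 22 were lower and none higher, with a median log2 difference of -0.76, and of 74 repair genes 26 were lower and 1 higher, with a median of -0.80. Of 63 mitosis genes, 7 were lower and 1 higher, or 11.1% lower against the 14.3% of all genes, although their median was -0.55. With centred libraries the lower counts were 17, 19 and 3. Ccnd1, encoding the G1 cyclin D1, went from 960.2 and 954 CPM to 132 and 116 CPM, a log2 difference of -2.95 ± 0.06 (adjusted p = 1.42e-14). The licensing factor genes Cdt1 and Cdc6 fell from 179.6 and 195 CPM to 28.2 and 26.6 CPM and from 29.5 and 24.2 CPM to 3.54 and 3.73 CPM. E2f2, a transcription factor of G1/S genes, fell from 60.5 and 60.01 CPM to 6.58 and 4.78 CPM, or 10.7-fold. By contrast the helicase subunit gene Mcm5 was at 200.2 and 189.9 CPM and 120.3 and 121 CPM, the mitotic kinase gene Cdk1 at 105 and 103 CPM and 74.8 and 83.6 CPM, and the proliferation marker Mki67 at 746 and 655 CPM and 387 and 421 CPM. These 3 passed the test (adjusted p = 1.69e-08, 1.74e-04 and 7.19e-04 with limma) but not the 2-fold limit.

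Among repair genes, Msh6, of mismatch repair, fell from 57.6 and 58.8 CPM to 11.96 and 9.43 CPM, and Ung, the uracil glycosylase gene, from 19.3 and 16.2 CPM to 3.82 and 3.095 CPM. Brca1 and Brca2, of homologous recombination, fell from 63.4 and 58.4 CPM to 14.2 and 14.5 CPM and from 26.1 and 24.8 CPM to 5.73 and 7.39 CPM. The Brca1 call (adjusted p = 0.0154) was lost without any single one of the 4 libraries, at adjusted p-values between 0.0543 and 0.0637. Rad52, a recombination mediator, was the only repair gene called higher, at 5.61 and 5.17 CPM and 10.4 and 11.2 CPM, just past the 2-fold limit, and it was not called with either pseudocount or without replicate 2 of either group. The mitosis genes that fell included Mybl2, a cell cycle factor, from 18.5 and 18.3 CPM to 5.804 and 6.33 CPM, Cdc25b, a phosphatase that activates CDK1, from 81.9 and 80.1 CPM to 27.8 and 35.7 CPM, and the kinesin gene Kif18a, from 11.4 and 9.495 CPM to 3.61 and 4.43 CPM. Cenpf, a kinetochore gene, went from 75.1 and 66.7 CPM to 30.7 and 31.1 CPM with an adjusted p of 0.0248 that was over 0.05 without any single library and with centred libraries. Pttg1, encoding securin, was the only mitosis gene called higher, from 11.4 and 12.5 CPM to 31.6 and 32.7 CPM. The E2F motif (TTTNGCGC) was in 16 of 63 replication promoters and in 2.42% of promoters of all genes tested, and the CHR motif (TTTGAA) in 39 of 55 mitosis promoters and in 12.3%. Over all called lower genes the shares were 2.61% and 11.4%, close to the 2.53% and 12.2% of genes not called.

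G protein-coupled receptor genes held some of the steepest falls. Of 62 G protein-coupled receptor and RGS genes, 22 were lower and 15 higher. Gpr183, an oxysterol receptor that positions immune cells, went from 23.3 and 29.3 CPM to 0.708 and 0.703 CPM, a log2 difference of -5.21 ± 0.18 (adjusted p = 4.98e-13), the deepest fall among the 199 genes that the naming rule selected. Rgs2, which limits Gq signaling, fell from 252 and 261 CPM to 11.96 and 11.7 CPM, the cannabinoid receptor gene Cnr2 from 40.6 and 44.6 CPM to 2.62 and 1.62 CPM, and the CXCL12 receptor gene Cxcr4 from 87.8 and 88.3 CPM to 6.37 and 6.96 CPM. Other members of the list rose. Adora2a, an adenosine receptor that restrains inflammation, went from 0.393 and 0.337 CPM to 53.9 and 60.9 CPM, a log2 difference of 7.30 ± 0.34 (adjusted p = 1.43e-08). Hcar2, the niacin receptor, rose from 2.86 and 3.15 CPM to 209 and 213 CPM, and Fpr1, the formyl peptide receptor, from 1.96 and 1.35 CPM to 96.05 and 99.7 CPM. Gpr18 had 3 pooled reads with vehicle and 10.8 and 9.36 CPM after treatment, a ratio of 119 (95% interval 40.4 to 582).

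**Figure D5:**
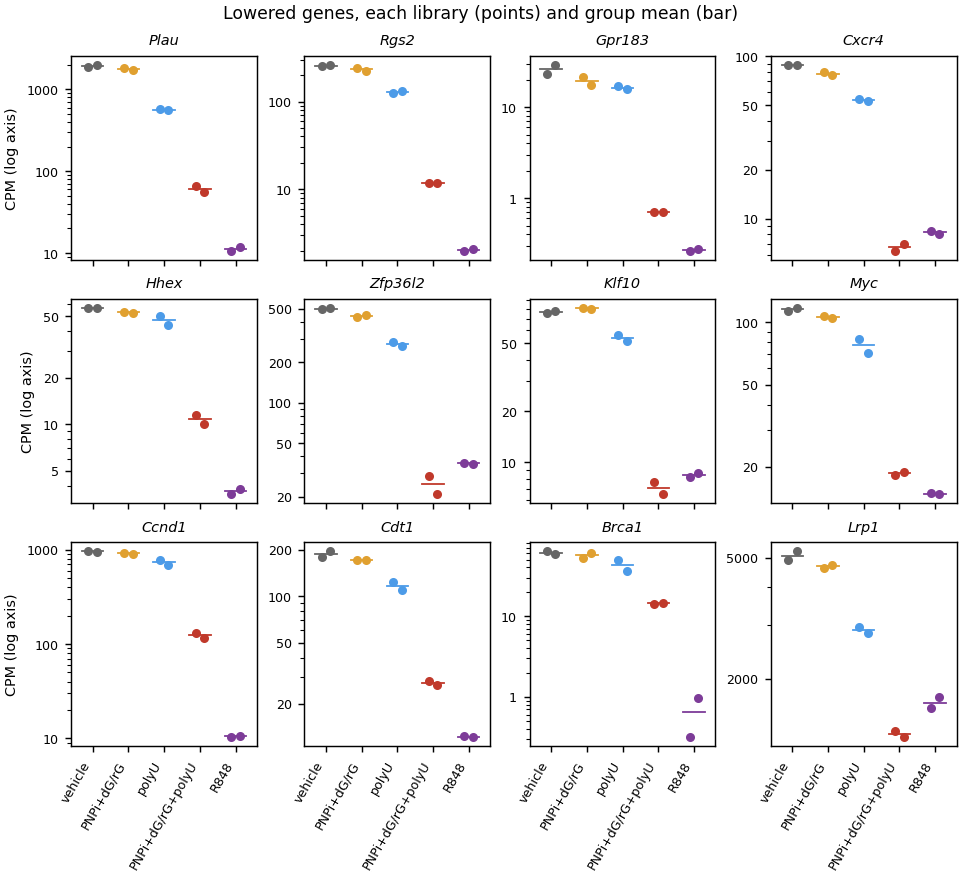
CPM on a log axis of 12 lowered genes in each of the 10 libraries (points) with the group mean (bar), ordered from left to right as vehicle, the inhibitor with guanosines but no ssRNA, polyU alone, PNPi+dG/rG+polyU and R848. The PNPi+dG/rG+polyU points lie below those of vehicle for every gene shown. R848 points lie lower still for Plau, Rgs2, Gpr183, Hhex, Myc, Ccnd1, Cdt1 and Brca1 but higher for Zfp36l2, Klf10 and Lrp1.

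Several pattern recognition and Fc receptors rose. Of 52 scavenger, lectin, Fc and phagocytic receptors, 20 were higher and 5 lower. These are 38.5% and 9.62%, against 8.12% and 14.3% of all genes, so falls were fewer than among all genes. Tlr2, the sensor of bacterial lipopeptides, rose from 53.03 and 59.3 CPM to 1029 and 1110.0 CPM, a log2 difference of 4.25 ± 0.08 (adjusted p = 5.53e-12), and Nod2, a sensor of muramyl dipeptide, from 5.11 and 6.24 CPM to 72.4 and 76.2 CPM. Fcgr2b, the inhibitory Fc receptor, rose from 51.6 and 49.8 CPM to 684 and 779 CPM, and Olr1, a receptor for oxidized LDL, from 0.449 and 0.112 CPM to 12.2 and 11.3 CPM. The lower genes were Lrp1, Tlr13, Stab1, Mertk and Siglec1. Lrp1, an endocytic receptor and one of the most abundant lowered genes, went from 4899 and 5247 CPM to 1348 and 1286 CPM, a log2 difference of -1.94 ± 0.05 (adjusted p = 7.55e-15). Mertk, which takes up apoptotic cells, fell from 40.3 and 40.6 CPM to 9.84 and 8.16 CPM, the clearance receptor gene Stab1 from 1576 and 1689.8 CPM to 704 and 687 CPM, and Tlr13, a sensor of bacterial ribosomal RNA, from 650.3 and 658 CPM to 158 and 156 CPM.

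Several co-signaling genes were called, but none of the MHC class II chain genes was. Of 19 members of the list that holds both, 5 were higher and 2 lower. These are 26.3% and 10.5%, against 8.12% and 14.3% of all genes. Cd40, the receptor for T cell help, rose from 14.4 and 15.2 CPM to 618 and 666 CPM, a log2 difference of 5.44 ± 0.08 (adjusted p = 1.66e-16). Icosl, the ligand of ICOS, rose from 6.12 and 4.83 CPM to 94.4 and 92.02 CPM, Cd274, encoding PD-L1, from 55.3 and 54.3 CPM to 598 and 646 CPM, and the activation marker Cd69 from 0.842 and 2.02 CPM to 202 and 202 CPM. Cd83 was the fifth higher member. Havcr2, encoding the inhibitory receptor TIM-3, fell from 85.5 and 81.7 CPM to 22.1 and 16.2 CPM, and Cd276, encoding B7-H3, from 17.8 and 16.97 CPM to 4.53 and 4.08 CPM.

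Several enzymes that make inflammatory mediators rose. Of 41 genes for arginine, itaconate, prostanoid and glucose metabolism, 9 were higher and 5 lower, with a median log2 difference of -0.04. The shares were 22.0% and 12.2%, against 8.12% and 14.3% of all genes, so the lower share was near that of all genes. Ptgs2, encoding COX-2, the inducible prostaglandin synthase, went from 5.27 and 6.12 CPM to 2306 and 2393 CPM, a log2 difference of 8.69 ± 0.15 (adjusted p = 2.49e-09), and Ptges, which makes PGE2 from its product, from 7.74 and 9.16 CPM to 190.3 and 208 CPM. Acod1, the enzyme that makes itaconate, rose from 62.3 and 62.1 CPM to 4284 and 4358 CPM, and Nos2, the inducible nitric oxide synthase, from 0.449 and 0.7304 CPM to 78.001 and 93.1 CPM. In contrast the COX-1 gene Ptgs1 fell from 9.54 and 7.42 CPM to 2.83 and 3.17 CPM, and Alox5, the first enzyme of leukotriene synthesis, from 8.87 and 7.25 CPM to 2.97 and 3.87 CPM. The remaining lower members were the glucose transporter gene Slc2a3 (26.8 and 23.9 CPM to 12.7 and 11.5 CPM), the lactate transporter gene Slc16a1 (48.3 and 44.3 CPM to 19.4 and 20.4 CPM) and Hk1, a hexokinase. With centred libraries 3 members were lower, and Slc2a3 and Hk1 were under 2-fold.

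Of 28 genes for guanosine handling and endolysosomal RNA breakdown, 6 were higher and 3 lower, with a median log2 difference of -0.05. These are 21.4% and 10.7%, against 8.12% and 14.3% of all genes. Pnp, the target of ulodesine, rose from 46.3 and 47.8 CPM to 135 and 137 CPM, a log2 difference of 1.53 ± 0.06 (adjusted p = 6.12e-12), and its neighbor Pnp2 from 0.505 and 0.393 CPM to 5.52 and 6.61 CPM. These 2 are close copies, and their reads could be split between them. Slc28a2, a concentrative purine nucleoside transporter, rose from 18.1 and 19.3 CPM to 123 and 119 CPM, Upp1, uridine phosphorylase, from 0.954 and 1.18 CPM to 4.32 and 5.698 CPM, and Nt5c3, a nucleotidase, from 22.7 and 19.4 CPM to 83.7 and 82.2 CPM. Rnaset2a, one of the RNase T2 genes, was the sixth. The lower members were Slc29a3, an equilibrative transporter that exports nucleosides from lysosomes, from 86.1 and 85.6 CPM to 34.5 and 33.9 CPM, its relative Slc29a2, from 4.88 and 6.35 CPM to 1.49 and 1.34 CPM, and Gmpr, GMP reductase, from 9.203 and 11.5 CPM to 4.46 and 4.01 CPM. Without replicate 1 of vehicle 5 members were lower.

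Of 44 genes of cholesterol and fatty acid metabolism, 4 were higher and 9 lower. These are 9.09% and 20.5%, against 8.12% and 14.3% of all genes, so the higher share was near that of all genes. The higher ones included Ch25h, which makes the antiviral sterol 25-hydroxycholesterol, from 14.7 and 15.5 CPM to 52.5 and 60.8 CPM, Hmgcs1, an early synthesis enzyme, from 36.7 and 32.6 CPM to 79.9 and 73.7 CPM, and Insig1, a brake on SREBP, from 21.9 and 23.1 CPM to 47.6 and 44.7 CPM. Among the lower ones, the efflux transporter gene Abcg1 went from 73.5 and 68.2 CPM to 18.6 and 23.99 CPM, the fatty acid synthase gene Fasn from 177 and 187 CPM to 71.8 and 57.1 CPM, the elongase gene Elovl6 from 9.82 and 10.5 CPM to 3.397 and 2.18 CPM and the desaturase gene Scd2 from 55.5 and 53.99 CPM to 21.2 and 17.4 CPM. Few lysosomal genes were called, with 1 higher and 2 lower of 51 and a median log2 difference of -0.47. Mcoln2, an endolysosomal channel, rose from 44.5 and 48.5 CPM to 140.4 and 151 CPM, and Sgsh, a heparan sulfate-degrading enzyme, and Pla2g15, a phospholipase, fell from 67.6 and 70.3 CPM to 17.6 and 17.4 CPM and from 137 and 150.4 CPM to 39.6 and 39.9 CPM.

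Antiapoptotic genes moved both ways, and several stress defense genes rose. Of 50 cell death and inflammasome genes, 13 were higher and 5 lower, or 26% and 10% against 8.12% and 14.3% of all genes. The antiapoptotic A1 genes rose, with Bcl2a1b going from 3.14 and 2.98 CPM to 69.3 and 71.6 CPM, Bcl2a1d from 0.505 and 0.787 CPM to 25.3 and 33.1 CPM and Bcl2a1a from 0.112 and 0.225 CPM to 10.6 and 11.6 CPM. These are near-identical copies whose shares are uncertain. Fas, a death receptor, rose from 1.74 and 1.57 CPM to 30.5 and 35.5 CPM, a log2 difference of 4.31 ± 0.12 (adjusted p = 5.23e-14). Bcl2, the founding survival gene, fell from 45.3 and 43.5 CPM to 8.56 and 12.2 CPM, the proapoptotic gene Bmf from 5.78 and 4.72 CPM to 0.425 and 0.492 CPM, the pore-forming gasdermin gene Gsdme from 17.1 and 19.6 CPM to 4.88 and 4.08 CPM, and the sensor gene Nlrp1b from 27.6 and 32.3 CPM to 5.73 and 5.698 CPM. Bcl2l1, encoding BCL-XL, was the fifth lower member. Of 37 antioxidant, iron and metal genes, 11 were higher and none lower. The cystine transporter gene Slc7a11 rose from 19.2 and 19.2 CPM to 509.7 and 558 CPM, the mitochondrial superoxide dismutase gene Sod2 from 134 and 126 CPM to 998 and 1033 CPM, and the copper-carrying ferroxidase gene Cp, ceruloplasmin, from 1.63 and 1.35 CPM to 131 and 141 CPM, a log2 difference of 6.52 ± 0.14 (adjusted p = 1.21e-15). Lcn2, which sequesters bacterial siderophores, rose from 1.85 and 2.42 CPM to 25.7 and 38.2 CPM, and Sqstm1, encoding the autophagy adaptor p62, from 739 and 795 CPM to 3125 and 3158 CPM.

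Urokinase and its inhibitor moved in opposite directions. Of 27 complement and coagulation genes, 8 were higher and 3 lower. The shares were 29.6% and 11.1%, against 8.12% and 14.3% of all genes, so falls were fewer than among all genes. Plau, the plasminogen activator urokinase, went from 1885 and 1999 CPM to 66.6 and 55.998 CPM, a log2 difference of -4.99 ± 0.08 (adjusted p = 4.97e-14). Serpinb2, which inhibits urokinase, rose from 0.393 and 0.506 CPM to 15.8 and 17.9 CPM, the factor X gene F10 from 2.08 and 3.26 CPM to 22.5 and 24.6 CPM, and Procr, the protein C receptor gene, from 13.2 and 13.3 CPM to 80.5 and 93.1 CPM. Plat, the tissue-type activator, had 1 pooled read with vehicle and 1.77 and 1.41 CPM after treatment, a ratio of 56.6 (95% interval 9.65 to 2283). Thbd, encoding the anticoagulant thrombomodulin, fell from 13.9 and 13.6 CPM to 3.19 and 2.81 CPM. F13a1, a clot-stabilizing transglutaminase, was at 1.63 and 1.97 CPM and 0.566 and 0.844 CPM with an adjusted p of 0.00624, which was 0.0590 without replicate 1 of the treated group.

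Adhesion molecules and matrix proteases were raised more often than lowered, with 13 higher and 5 lower of 42. The shares were 31.0% and 11.9%, against 8.12% and 14.3% of all genes, so the lower share was near that of all genes. Adamts4, a protease that cleaves aggrecan, had 3 pooled reads with vehicle and 99.4 and 89.8 CPM after treatment, a ratio of 1123 (95% interval 384 to 5449). Icam1, which binds leukocyte integrins, rose from 64.9 and 72.3 CPM to 1104 and 1069.7 CPM, a log2 difference of 3.99 ± 0.06 (adjusted p = 3.47e-16), and the membrane protease gene Mmp25 from 0.617 and 0.225 CPM to 5.03 and 6.75 CPM. Fscn1, which bundles actin in mature dendritic cells, went from 0.0561 and 0.787 CPM to 20.7 and 23.1 CPM, with an adjusted p of 0.00371 that was 0.0659 when only the 2 groups were fitted. The integrin genes Itgb3 and Itga6 fell from 17.7 and 19.8 CPM to 4.46 and 2.603 CPM and from 315 and 313 CPM to 92.7 and 76.7 CPM, the sheddase gene Adam8 from 3294 and 3406 CPM to 1456 and 1382 CPM, and Mmp19 from 21.997 and 19.2 CPM to 8.64 and 9.07 CPM.

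Outside these lists, the genes with the largest rises included Edn1, the vasoconstrictor peptide endothelin-1, from 0.168 and 0.112 CPM to 140.4 and 149 CPM, a pooled-read ratio of 1029.8 (95% interval 441 to 3173). Mir155hg, the host transcript of the inflammatory microRNA miR-155, went from 0.168 and 0.0562 CPM to 28.2 and 26.5 CPM, a ratio of 244 (95% interval 94.8 to 897). Shisa3 had 2 pooled reads with vehicle and 48.1 and 47.5 CPM after treatment, and Zfp811 had 1 and 28.2 and 25.9 CPM. Among the largest falls outside the lists, Rasgrp3, an exchange factor for RAS and RAP, went from 63.7 and 70.01 CPM to 3.33 and 3.73 CPM, Efr3b, a membrane anchor of a phosphatidylinositol kinase, from 149 and 156 CPM to 9.48 and 7.74 CPM, and Angpt2, a ligand of TIE2, from 12.7 and 12.02 CPM to 0.637 and 1.27 CPM. Cdca7, a chromatin factor of dividing cells, fell 14.4-fold, and the transcription factor gene Tfap4 14.4-fold. Zfp395, Zfp618, Zfp469 and 2900026A02Rik fell 23.97-fold, 17.7-fold, 16.7-fold and 16.97-fold.

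The 10 higher genes with the largest share took 0.601% and 0.591% of reads with vehicle and 3.10% and 3.13% after treatment. Besides those already given, they were Tnfaip2, a TNF-inducible gene, from 205 and 216 CPM to 2828 and 2670.4 CPM, Cybb, the catalytic subunit of the phagocyte NADPH oxidase, from 839 and 812 CPM to 2419 and 2452 CPM, and Rnf213, a giant ubiquitin ligase induced by IFN, from 648 and 596 CPM to 2402 and 2406 CPM. The 10 lower genes with the largest share went from 2.18% and 2.28% to 0.832% and 0.809%. They included genes of large cytoskeletal and membrane proteins. Myh9, nonmuscle myosin, fell from 1554 and 1562 CPM to 644 and 642 CPM, the linker gene Plec from 1534 and 1635 CPM to 726 and 681 CPM, the scaffold gene Ahnak from 1741 and 1847 CPM to 689.9 and 699 CPM, and Piezo1, a mechanosensitive channel, from 1407 and 1463 CPM to 559.7 and 560.3 CPM. Anpep, aminopeptidase N, went from 1927 and 1988 CPM to 921 and 929 CPM and BC005537 from 1971 and 1916 CPM to 725 and 694 CPM.

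The same treated libraries were also compared with polyU alone and with R848, so these comparisons share samples with the one above and are given side by side. Against polyU, 634 genes were higher (5.29%) and 1219 lower (10.2%) with PNPi+dG/rG+polyU, and against R848, 2019 were higher (16.9%) and 462 lower (3.86%). With centred libraries the counts were 829 and 755 against polyU and 1194 and 852 against R848. Of the 34 cytokine genes, 17 were higher than with polyU, while 7 were higher and 9 lower than with R848. These counts are to be read against the 5.29%, 16.9% and 3.86% of all genes, in the same order. List counts against polyU and R848 were not redone with centred libraries. Il12b stood at 8.07 and 10.5 CPM with polyU and 956 and 954 CPM with R848, which puts PNPi+dG/rG+polyU 7.63 ± 0.10 above polyU (adjusted p = 1.18e-16) and 0.93 ± 0.10 above R848 (adjusted p = 8.85e-07) on the log2 scale. Il1b stood at 3.81 and 3.31 CPM and 6558 and 6751 CPM, so that PNPi+dG/rG+polyU lay above polyU and below R848, with a log2 difference of -3.25 ± 0.08 from R848 (adjusted p = 4.98e-14). Il10 was at 109 and 110.2 CPM with R848, a difference of 0.06 ± 0.11 (adjusted p = 0.620).

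Most IFN-stimulated effectors were higher than with R848. Of the 58 effector genes, 36 were higher than with R848 and none lower, and 19 were higher and 1 lower than with polyU. Mx1 was at 136 and 159 CPM with polyU and 35.9 and 41.98 CPM with R848, which puts PNPi+dG/rG+polyU 1.65 ± 0.11 and 3.57 ± 0.11 above them on the log2 scale (adjusted p = 4.35e-08 and 2.46e-11). Cxcl10 was at 199 and 219 CPM and 91.4 and 93.1 CPM in the same order, with differences of 1.92 ± 0.26 and 3.10 ± 0.26 (adjusted p = 0.00136 and 1.22e-04). NF-κB genes differed from polyU alone, with 9 of 11 higher than with polyU and none called against R848.

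Cell cycle genes were higher than with R848. The median log2 difference of all genes was 0.31 against R848 and -0.24 against polyU. Of the 64 replication genes, 53 were higher than with R848 and none lower, and of the 63 mitosis genes 62 were higher, against 16.9% of all genes. The summed fibroblast markers reached 409.8 CPM in a library of the R848 group, against 10.2 and 9.78 CPM with PNPi+dG/rG+polyU. The part of cell content in the differences from R848 was not tested. Against polyU, 17 replication genes and 2 mitosis genes were lower. Cdk1 was at 108 and 98.6 CPM with polyU and 2.76 and 3.001 CPM with R848, and PNPi+dG/rG+polyU was 4.78 ± 0.07 above R848 on the log2 scale (adjusted p = 7.60e-16). Plau was at 575 and 561 CPM and 10.7 and 11.9 CPM, which places PNPi+dG/rG+polyU between them, with differences of -3.22 ± 0.08 and 2.44 ± 0.08 (adjusted p = 5.47e-12 and 7.44e-11).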

How the data were processed

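Enriched mRNA of BMDMs was made into libraries with a KAPA stranded kit and sequenced on a HiSeq 3000 as 50 bp reads. Per the study's methods and the submitters' processing notes, reads were demultiplexed with bcl2fastq 2.19.1.403 and aligned with STAR 2.27a to GRCm38 with reads counted per Ensembl 97 gene, and the counts were normalized in Partek Flow. How reads on several genes were counted is not given in the sources used here. The deposited values are CPM, scaled by the authors to the total of reads on genes, and each carries an offset of 0.0001. CPM is a share of a library, so large rises lower the share of all other genes, and it does not correct for gene length.

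The offset was removed for printing. Every value of up to 100 reads came out within 0.02 of a whole read, which gave each library's depth, but no count model was run because the offset keeps the deposited column from being whole multiples. Symbols came from GENCODE M21 (Ensembl 96) for 55394 of 55573 gene IDs. Genes with at least 1 CPM in 2 of the 10 libraries were fitted on log2 CPM, offset included, with limma 3.58.1 (trend and robust variance, statmod 1.5.0, R 4.3.3) over all 5 groups of 2 libraries, and p-values were adjusted over all 11978 genes by Benjamini-Hochberg. A call needed an adjusted p under 0.05 and a 2-fold change. Errors after ± are standard errors of this fit. Sums, ratios and figures used Python 3.11.15, numpy 2.4.6, pandas 2.3.3, scipy 1.17.1 and matplotlib 3.10.9. Ratios of pooled reads have exact Clopper-Pearson 95% intervals, which cover counting error only. The fit was tested on simulated data. A permutation test of 2 against 2 libraries cannot go below 0.333.

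The members and gene lists were chosen with earlier results of these data known. Named genes were the 15 largest changes each way that reached 10 CPM in each library of either group, with no overlap between groups, up to 4 per list and direction, the 10 called genes of highest level each way and a fixed set, of which a few are not reported here. Promoters were RefSeq windows of GRCm38.p6, from 250 bases before to 50 after the start. The alternatives were 2 pseudocounts, 2 filters, centred libraries, plain variance moderation, only the 2 groups, a replicate block and leaving out each library. Same-numbered libraries did not deviate together, with correlations of -0.04 with vehicle, 0.06 with polyU and -0.01 with R848 over 8459 genes.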

Additional observations from a re-analysis of the deposited data

How the results depend on the processing

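The numbers of genes higher and lower than vehicle, and of genes changed either way against polyU and R848, stayed within 1.5 times of the reported value under every alternative run. By direction, centred libraries moved the genes lower than polyU from 1219 to 755, those higher than R848 from 2019 to 1194 and those lower than R848 from 462 to 852. Higher genes numbered 836 to 1192 and lower genes 1245 to 1950, and leaving out each library in turn gave 911 to 974 and 1651 to 1753. Against polyU the leave-one-out counts were 1733 to 1894 and against R848 2335 to 2508. A block for the replicate number gave 971 higher and 1708 lower genes, 1850 changed against polyU and 2478 against R848, and moved no named gene across the adjusted p threshold, while the labels do not say that a number pairs libraries. Of 2579 recomputed values of the 199 genes selected by the naming rule, 2553 kept their direction and side of the adjusted p threshold, 17 of 6 genes lost it and 7 gained it. The log2 difference of Tlr7, 0.05 as reported, turned to -0.01 without replicate 2 of PNPi+dG/rG+polyU and to -0.060 without replicate 2 of vehicle, and was 0.165 without replicate 1 of vehicle and 0.26 with centred libraries, where it passed the test without reaching 2-fold. The cause was not tested. For counts of list members, 23 of 650 moved by over 1.5 times. Raising values under 3 reads to 3 reads was an alternative chosen after seeing the data and gave 994 higher and 1790 lower. With 2 libraries a group, genes with few reads are the least certain.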
